A study of Mus musculus with 8 samples.

Results

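Homologous recombination copies an intact DNA strand to mend a double-strand break, and the Fanconi pathway works together with it to remove crosslinks between DNA strands. Fanconi core proteins ubiquitinate the FANCD2-FANCI pair, nucleases trim the broken ends, BRCA2 loads the recombinase, and helicases and nucleases resolve the joined strands. Cells use these steps mostly during and after DNA replication, and inherited defects in several of the genes predispose to prostate cancer.

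The 38 genes described here belong to these pathways and were followed in 8 mouse prostate tumors. The genes were chosen by symbol from knowledge of the pathways, but with earlier results of these data known. Shares of the 38 set beside those of all genes are therefore descriptive. All 38 of 38 were found among the 38115 gene identifiers counted. Each of the 38 also passed the filter on low counts, which left 17104 genes for the main tests. They were divided by role into 8 Fanconi core genes, the FANCI-FANCD2 pair, 5 genes of the BRCA complexes, 5 recombinase paralogs and Rad54 motors, 5 genes of end resection and break sensing, 5 of junction processing, 7 of checkpoint kinases and fork protection, and Parp1.

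The tumors came from Myc-CaP cells, a line from a mouse prostate tumor driven by a Myc transgene, grafted into the anterior prostate of male FVB mice. Androgen-sensitive (AS) or castrate-resistant (CR) cells were used, in hosts described as intact or castrated before grafting. For each phenotype 2 primary tumors and 2 metastases were sequenced, called here 1 and 2 in the order of the sample list. The study's own comparison of tumor types used fewer primary tumors than are listed, and the labels did not show which was left out, so all were used. The metastases were described as matched, but the labels did not say to which primary tumor, and no host age or metastatic site was given. Each group of 2 came from 1 cell line per phenotype, so the phenotype cannot be told apart from the line, and the p-values measure only the spread between these tumors.

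Library totals ran from 61237285 to 91886163 counts in AS tumors and from 20905806 to 76887592 in CR tumors. Metastatic CR1 (40586710), primary CR2 (24909389) and metastatic CR2 (20905806) were below every AS tumor, and only primary CR1 (76887592) was within the AS range. Depth thus went largely with phenotype, and its part in the phenotype differences was not tested. Prostate epithelial markers were present in every tumor, with summed normalized counts of 76803 to 205666, while lung markers summed to at most 49.97 and liver markers to at most 1530. The 10 proliferating cell markers stood apart in primary CR1: their summed normalized count was 23574 there, 8567 and 6245 in the primary AS tumors and 6014 in primary CR2, and ran from 15134 to 25089 in metastases. Results that rest on primary CR1 are therefore given with and without it. In bulk tumors, fewer cells carrying a transcript and less transcript per cell cannot be told apart.

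Promoters were read for the genes to show what the group shares in sequence. Of the 38 genes, 31 matched a RefSeq promoter (GRCm38.p6, 250 bases before to 50 after the start). Only the first listed promoter of each gene was read, and some starts lay inside the annotated gene. For Timeless the window began at chr10:128237816, while the gene, on the plus strand, begins at 128232065. One of 4 E2F words (TTTCCCGC, TTTCGCGC, TTTGCCGC or TTTGGCGC, either strand), the family bound by regulators of S-phase genes, was present in 7 of the 31 promoters (22.6%) and in 2.32% of all 27025 promoters. These 7 were Bard1, Brca2, Chek2, Clspn, Fancg, Rad51c and Topbp1. The CCAAT word was present in 18 of 31 (58.1%, against 37.9% of all), the E-box CACGTG in 3 (9.68%, against 7.24%) and the cell-cycle word TTTGAA in 2 (6.45%, against 18.1%). Median GC was 59.7% in these promoters and 52.7% in all. A matching word describes the sequence and is not a measured binding site.

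The promoters of 6 genes are printed because the results turn on them: Brca2, Blm and Fancf, higher in CR tumors, Bard1, higher in metastases before correction, and Fancg and Rad51c, lower in CR tumors before correction. They run 5′ to 3′ on the strand of the gene, and capitals mark an E2F word.
Brca2 (chr5:150522371-150522670, plus strand): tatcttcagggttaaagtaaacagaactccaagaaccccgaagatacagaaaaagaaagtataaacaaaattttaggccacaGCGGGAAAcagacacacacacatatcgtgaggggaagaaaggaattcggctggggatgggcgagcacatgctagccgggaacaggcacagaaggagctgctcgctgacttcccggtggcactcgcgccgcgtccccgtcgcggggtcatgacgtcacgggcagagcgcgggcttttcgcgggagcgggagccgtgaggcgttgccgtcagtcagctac
Blm (chr7:80534949-80535248, minus strand): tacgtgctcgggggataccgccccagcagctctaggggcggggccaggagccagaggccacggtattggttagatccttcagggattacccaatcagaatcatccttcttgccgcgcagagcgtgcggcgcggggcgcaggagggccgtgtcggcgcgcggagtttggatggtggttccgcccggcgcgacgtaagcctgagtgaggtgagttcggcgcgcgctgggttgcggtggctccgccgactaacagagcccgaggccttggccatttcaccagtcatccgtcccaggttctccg
Fancf (chr7:51862218-51862517, minus strand): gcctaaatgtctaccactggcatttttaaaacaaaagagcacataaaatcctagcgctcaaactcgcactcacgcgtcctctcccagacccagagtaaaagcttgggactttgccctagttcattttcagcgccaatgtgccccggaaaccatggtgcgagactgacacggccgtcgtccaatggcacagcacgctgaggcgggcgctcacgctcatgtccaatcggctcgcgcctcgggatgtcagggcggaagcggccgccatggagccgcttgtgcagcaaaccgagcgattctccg
Bard1 (chr1:71102923-71103222, minus strand): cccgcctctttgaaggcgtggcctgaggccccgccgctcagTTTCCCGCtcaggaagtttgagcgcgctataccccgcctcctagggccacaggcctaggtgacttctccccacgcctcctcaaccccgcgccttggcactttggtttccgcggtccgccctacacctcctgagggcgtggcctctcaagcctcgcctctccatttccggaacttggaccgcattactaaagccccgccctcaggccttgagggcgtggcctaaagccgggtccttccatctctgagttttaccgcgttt
Fancg (chr4:43010252-43010551, minus strand): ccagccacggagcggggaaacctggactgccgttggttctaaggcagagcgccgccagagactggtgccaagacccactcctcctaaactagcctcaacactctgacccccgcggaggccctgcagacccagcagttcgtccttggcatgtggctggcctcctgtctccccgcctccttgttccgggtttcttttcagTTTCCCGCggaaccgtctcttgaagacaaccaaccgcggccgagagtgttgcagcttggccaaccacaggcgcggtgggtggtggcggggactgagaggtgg
Rad51c (chr11:87404457-87404756, minus strand): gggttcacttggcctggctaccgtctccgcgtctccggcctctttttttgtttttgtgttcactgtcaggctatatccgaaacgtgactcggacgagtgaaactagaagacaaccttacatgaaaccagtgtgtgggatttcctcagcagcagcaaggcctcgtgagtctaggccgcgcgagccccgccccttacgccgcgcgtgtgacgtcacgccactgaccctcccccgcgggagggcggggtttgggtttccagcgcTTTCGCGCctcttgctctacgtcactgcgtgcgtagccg
Brca2, Bard1, Fancg and Rad51c held an E2F word, and Blm and Fancf held none, so genes that differed in opposite directions between phenotypes both carried it.

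Levels per length differed widely within the group. Parp1, which senses single-strand breaks, had the highest mean level at 11.3 ± 2.23 CPM per kilobase of exon (SD, n = 8), and the lowest was Palb2, the partner that joins BRCA1 to BRCA2, at 0.270 ± 0.0740. The 3 subunits of the complex that senses broken ends followed Parp1, with Rad50 at 9.36 ± 3.12, Nbn at 7.73 ± 1.02 and Mre11a at 5.90 ± 1.15. Only 4 of 37 neighbouring pairs in this order differed by more than the SD of their difference: Nbn over Mre11a, Atm over Fancl, Fance over Eme1 and Chek2 over Clspn. The other neighbours did not differ beyond their spread. Length was that of all exons of a gene merged over its transcripts, which can exceed its longest transcript. It was 7342 against 3750 bases for Palb2 and 23629 against 8102 for Atr, but 1691 for both in Fancf. The place of such genes in the order therefore depends on the length used. Across tumors Exo1 and Fancf varied most, with coefficients of variation of 69.5% and 67.3%, and Rmi1 least, with 10.5%.

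**Figure D1:**
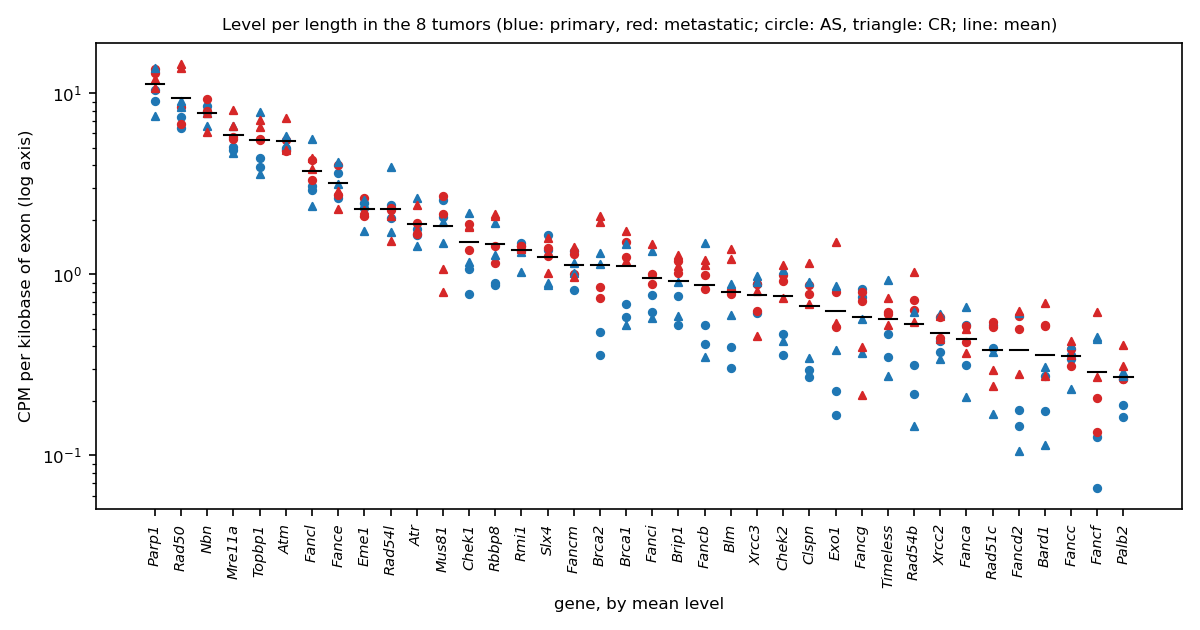
CPM per kilobase of exon (log axis) for each of the 38 genes, ordered by mean, with 1 point for each of the 8 tumors. Levels fall from Parp1 (mean 11.3) to Palb2 (mean 0.270), and the points of most neighbouring genes overlap.

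The first comparison asked which of the genes differed between metastatic and primary tumors. None of the 38 passed the edgeR quasi-likelihood test after Benjamini-Hochberg adjustment, as none of all 17104 genes did (0%), and DESeq2 also called none. The smallest adjusted p among the 38 was 0.997. At an unadjusted p under 0.05, 5 of the 38 were higher in metastases and none lower, beside 267 genes higher (1.56%) and 192 lower (1.12%) of all genes tested. The 5 were Brip1, Bard1, Rad54b, Blm and Brca1. Of the 38 genes 33 (86.8%) had a positive log2 fold change, beside 46.2% of all genes, and their median was 0.28 beside -0.03. Markers of other cells moved in the same comparison: fibroblast markers had a median of -0.41 (5 of 6 lower), with sums of 4058 to 6320 in primary tumors and 3112 to 5578 in metastases. Endothelium markers had a median of 0.46 (4 of 5 higher), with sums of 2481 to 3771 and 3192 to 5208. Their part in the result was not tested.

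**Figure D2:**
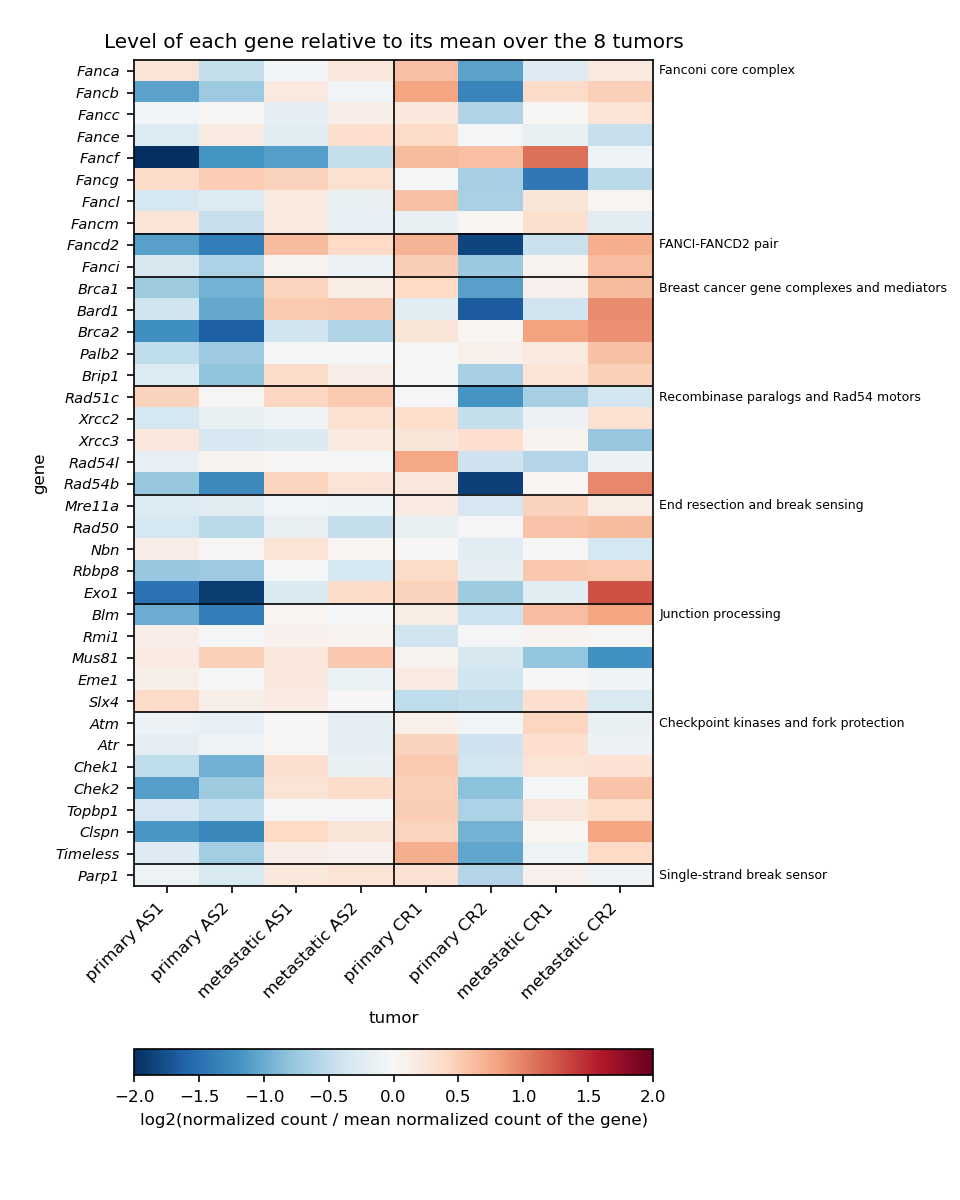
Normalized count of each gene divided by its mean over the 8 tumors (log2 color scale, red higher and blue lower), with genes in rows by role and tumors in columns, AS on the left and CR on the right. Primary AS1, primary AS2 and primary CR2 are blue for most genes, while primary CR1 is red for most.

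BRCA1 and its partners gave 3 of the 5. BRCA1 and BARD1 form a ubiquitin ligase that promotes recombination, and BRIP1 is a helicase bound to BRCA1. The normalized count of Brip1, given for tumor 1 and then tumor 2 of each group here and hereafter, was 336 and 233 in the primary AS tumors, 401 and 259 in the primary CR tumors, 525 and 448 in the metastatic AS tumors and 494 and 569 in the metastatic CR tumors. All 4 metastases were above all 4 primary tumors, the only 1 of the 38 genes without overlap in that direction, beside 0.854% of all genes, and no gene of the 38 was without overlap in the other direction (0.848% of all genes). The difference was 1.65-fold, with log2 fold change 0.73 ± 0.23 (SE, n = 4 per group), adjusted p = 0.997 and exact permutation p = 0.0286 (edgeR), in a two-sided test, the smallest p that permuting 4 against 4 can give.

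Bard1 had normalized counts of 91.8 and 59.2 in the primary AS tumors, 104 and 38.2 in the primary CR tumors, 174 and 176 in the metastatic AS tumors and 92.0 and 233 in the metastatic CR tumors. The metastatic mean was 2.27-fold higher in the fit, but metastatic CR1 lay below primary CR1, so the groups overlapped. The edgeR test gave log2 fold change 1.18 ± 0.40 (SE, n = 4 per group), adjusted p = 0.997 and exact permutation p = 0.0571. For Brca1 the counts were 345 and 293 in the primary AS tumors, 741 and 265 in the primary CR tumors, 766 and 628 in the metastatic AS tumors and 600.3 and 877 in the metastatic CR tumors. Primary CR1 was within the metastatic range and the other primary tumors were below it. Its edgeR test gave log2 fold change 0.80 ± 0.34 (SE, n = 4 per group), adjusted p = 0.997 and exact permutation p = 0.0857, and without primary CR1 the log2 fold change was 1.25 with an adjusted p of 0.238. Bard1 and Brip1 had values of 1.39 and 0.88 without that tumor.

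Among the other roles, RAD54B, a motor protein that moves recombinase along DNA, and BLM, a helicase that dissolves joined strands, completed the 5. Rad54b was counted at 108 and 75.3 in the primary AS tumors, 213 and 49.97 in the primary CR tumors, 249 and 219 in the metastatic AS tumors and 187 and 355 in the metastatic CR tumors. Metastases were higher apart from an overlap with primary CR1, with log2 fold change 1.16 ± 0.44 (SE, n = 4 per group), adjusted p = 0.997 and exact permutation p = 0.0571 (edgeR). Rad54b shares 35.8% of its exon bases with Fsbp on the same strand, and Fsbp moved alongside with a log2 fold change of 0.93, so the counts of these genes are uncertain. Blm was counted at 207 and 159 in the primary AS tumors, 458 and 309 in the primary CR tumors, 427 and 405 in the metastatic AS tumors and 633 and 718 in the metastatic CR tumors. Its counts overlapped only through primary CR1, which exceeded both metastatic AS tumors, and the edgeR test gave log2 fold change 0.94 ± 0.36 (SE, n = 4 per group), adjusted p = 0.997 and exact permutation p = 0.0857. Without primary CR1 the log2 fold changes were 1.67 for Rad54b and 1.28 for Blm, with adjusted p-values of 0.339 and 0.488.

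Fancd2, which is ubiquitinated in response to crosslinks, spread widely among primary tumors. Its counts were 84.2 and 68.5 in the primary AS tumors, 286 and 49.97 in the primary CR tumors, 278 and 236 in the metastatic AS tumors and 132 and 296 in the metastatic CR tumors. Primary CR1 lay among the metastases and the other 3 primary tumors were below all of them. The log2 fold change was 0.93 ± 0.55 with all 8 tumors, which did not pass, and 1.78 without primary CR1, with an adjusted p of 0.290. Its partner Fanci had log2 fold change 0.39 ± 0.32 and did not pass.

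CHK1 and CHK2, the kinases that halt the cycle after damage, did not separate the tumor types. Chek1 counts were 294 and 213 in the primary AS tumors, 596 and 323 in the primary CR tumors, 523 and 375 in the metastatic AS tumors and 503 and 507 in the metastatic CR tumors, and Chek2 counts were 63.4 and 82.9 in the primary AS tumors, 188 and 76.4 in the primary CR tumors, 164 and 176 in the metastatic AS tumors and 132 and 201 in the metastatic CR tumors. Primary CR1 was above every metastasis for Chek1 and within their range for Chek2, while the other 3 primary tumors were below all metastases for both. Neither passed, with log2 fold changes of 0.42 ± 0.32 and 0.70 ± 0.38, and 0.78 and 1.17 without primary CR1 (adjusted p = 0.728 and 0.421). Clspn, the adaptor that activates CHK1, was just outside the unadjusted threshold at 0.93 ± 0.41 (edgeR).

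The upstream kinases and the single-strand break sensor were steadier. Atm counts were 3052 and 2966 in the primary AS tumors, 3549.5 and 3184 in the primary CR tumors, 3388 and 2947 in the metastatic AS tumors and 4481 and 2995 in the metastatic CR tumors, and Atr counts were 2324 and 2486 in the primary AS tumors, 3678 and 1999 in the primary CR tumors, 2703 and 2348 in the metastatic AS tumors and 3376 and 2469 in the metastatic CR tumors. Parp1 counts were 3284 and 2859.7 in the primary AS tumors, 4324 and 2343 in the primary CR tumors, 4078 and 4253 in the metastatic AS tumors and 3751 and 3375 in the metastatic CR tumors. None of these 3 passed, and primary and metastatic tumors overlapped for each. Nominal 95% intervals of the log2 fold change were -0.24 to 0.47, -0.38 to 0.49 and -0.14 to 0.68. These intervals use a normal approximation and are too narrow for so few tumors.

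These counts changed with primary CR1, which was the highest of the primary tumors for 28 of the 38 genes (73.7%), for 29.6% of all genes and for all 10 proliferating cell markers. The median level of the 38 genes relative to their 8-tumor means was 0.81 and 0.71 in primary AS tumors, 1.20 in primary CR1 and 0.72 in primary CR2. In metastases it was 1.08, 1.04, 1.05 and 1.21 in AS1, AS2, CR1 and CR2. Over the same tumors the median of the proliferation markers was 0.55, 0.41, 1.57 and 0.41 in primary tumors and 1.34, 1.20, 0.92 and 1.49 in metastases. Mki67, which marks cycling cells, was higher in metastases by a log2 fold change of 1.29 (adjusted p = 0.997, edgeR). The part of proliferation in the levels of the repair genes was not tested.

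**Figure D3:**
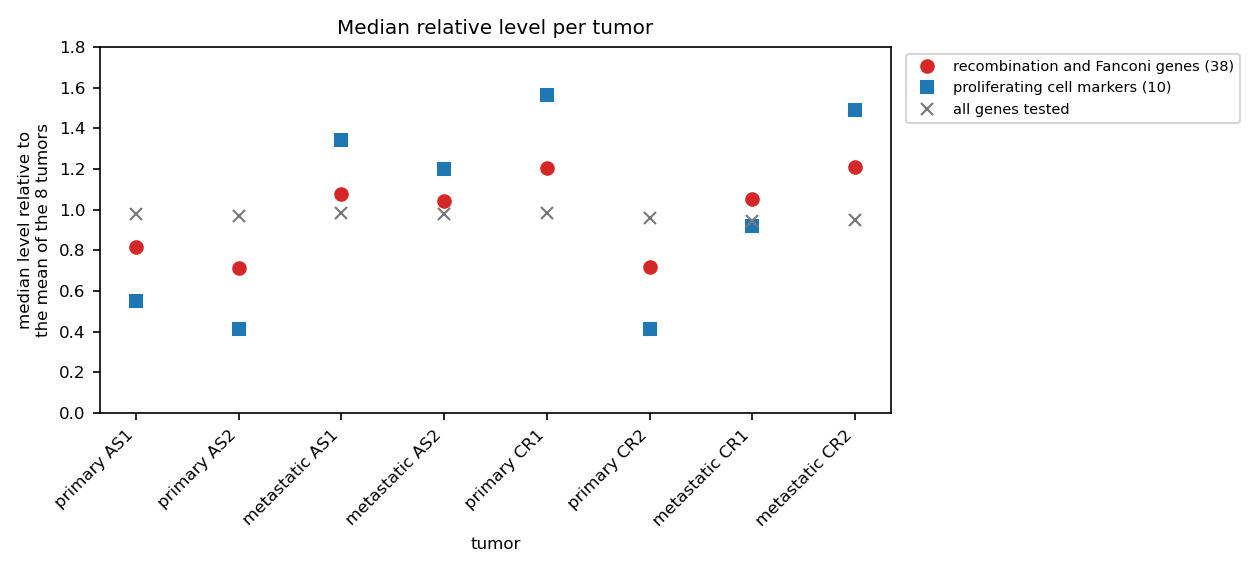
Median level relative to the 8-tumor mean in each tumor for the 38 repair genes (red circles), 10 proliferating cell markers (blue squares) and all 17104 genes tested (grey crosses). Both gene groups are low in primary AS1, primary AS2 and primary CR2 and high in primary CR1, while all genes stay near 1.

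Without primary CR1, 17 of the 38 were higher at an unadjusted p under 0.05 and none lower, beside 3.48% of all genes higher, and none passed after adjustment. The median log2 fold change of the 38 was then 0.51. Counts with the other tumors left out were 2 without primary AS1, primary AS2 or metastatic CR2, 4 without metastatic AS1 or primary CR2, and 5 without metastatic AS2 or metastatic CR1. Within AS tumors alone 15 genes passed the unadjusted threshold, all higher in metastases (4.28% of all genes higher), and within CR tumors alone 2 did, also higher (0.915%). With phenotype as a term there were 10, all higher (2.75% of all genes higher).

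The second comparison asked which genes differed between CR and AS tumors, with tumor type as a term. Of the 38 genes 5 rose in CR tumors at an adjusted p under 0.05 (edgeR) and none fell. Of all 17104 genes, 1053 rose (6.16%) and 1028 fell (6.01%), so 12.2% passed in either direction, and 5 of 38 is near that share. The 5 were Brca2, Rbbp8, Blm, Fancf and Rad50. At an unadjusted p under 0.05, 7 were higher (14.3% of all genes) and 3 lower (14.6%). All 4 CR tumors exceeded all 4 AS tumors for Brca2, Fancf, Palb2 and Rad50 (9.09% of all genes), and lay below them for Fancg, Rad51c, Nbn and Mus81 (9.82%). The summed prostate epithelial markers were also higher in every CR tumor (146768 to 205666) than in any AS tumor (76803 to 139479), with 4 of the 5 markers tested higher, and their part in these results was not tested.

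Brca2, which loads the recombinase onto single-stranded DNA, had the smallest p of the 38. Its counts were 388 and 291 in the primary AS tumors, 1066 and 926 in the primary CR tumors, 689.9 and 598 in the metastatic AS tumors and 1584 and 1704 in the metastatic CR tumors. Every CR tumor was above every AS tumor, and within each phenotype both metastases were above both primary tumors. CR tumors had 1319.9 ± 382 against 492 ± 184 in AS tumors (mean ± SD, n = 4 each), a 2.74-fold difference, with log2 fold change 1.45 ± 0.16 (SE, n = 4 per group), adjusted p = 0.00315 and exact permutation p = 0.0286 (edgeR). Brca2 (ENSMUSG00000041147, GRCm38 chr5:150522630-150570329) has 27 exons in its longest transcript and no exon window shared with another gene. It passed in all 8 fits that left out 1 tumor, with log2 fold changes of 1.37 to 1.51. Its difference between tumor types, 0.78 ± 0.50, came from a fit without phenotype as a term and did not pass. That log2 fold change was 0.52 to 1.10 over the alternative fits.

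**Figure D4:**
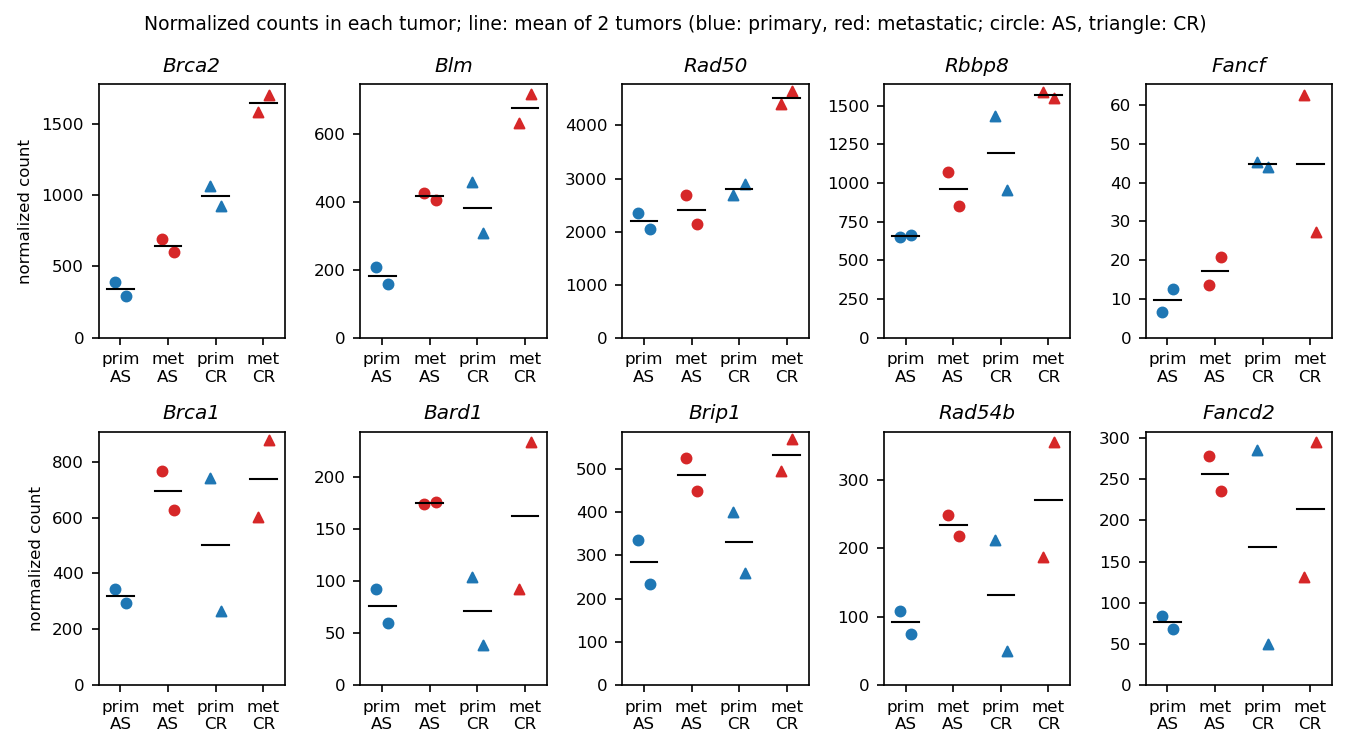
Normalized counts (linear axes from 0) of 10 genes in each tumor by tumor type (prim, met) and phenotype, with lines at the mean of 2 tumors. Brca2 CR tumors sit between 926 and 1704, all above the AS tumors at 291 to 690, whereas the primary CR tumors of Brca1 and Fancd2 lie far apart.

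End resection gave 2 of the 5. RAD50 holds broken ends together, and RBBP8, also called CtIP, starts their trimming. Rad50 counts were 2343 and 2050.2 in the primary AS tumors, 2693 and 2901 in the primary CR tumors, 2681 and 2151 in the metastatic AS tumors and 4409 and 4642 in the metastatic CR tumors. All CR tumors were above all AS tumors, the primary CR tumors by a small margin, with log2 fold change 0.63 ± 0.16 (SE, n = 4 per group), adjusted p = 0.0411 and exact permutation p = 0.0286 (edgeR). Rbbp8 counts were 649 and 663 in the primary AS tumors, 1433 and 955 in the primary CR tumors, 1070.1 and 854 in the metastatic AS tumors and 1589 and 1549.8 in the metastatic CR tumors. Primary CR2 fell between the metastatic AS tumors, so the groups overlapped, with log2 fold change 0.79 ± 0.17 (SE, n = 4 per group), adjusted p = 0.0242 and exact permutation p = 0.0571 (edgeR).

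The other subunits of the RAD50 complex did not pass. Mre11a, the nuclease subunit, had counts of 1714 and 1781 in the primary AS tumors, 2320.3 and 1646 in the primary CR tumors, 2004 and 1953 in the metastatic AS tumors and 2857 and 2309.7 in the metastatic CR tumors. Nbn, the signalling subunit, had counts of 1272 and 1177 in the primary AS tumors, 1167 and 991 in the primary CR tumors, 1405 and 1199 in the metastatic AS tumors and 1171 and 914 in the metastatic CR tumors. Mre11a groups overlapped, whereas every CR tumor was below every AS tumor for Nbn, though by little. Their log2 fold changes were 0.28 ± 0.15 and -0.25 ± 0.15, with adjusted p-values of 0.257 and 0.307. Exo1, the exonuclease that extends resection, had counts of 113 and 83.7 in the primary AS tumors, 429 and 191 in the primary CR tumors, 255 and 401 in the metastatic AS tumors and 271 and 755 in the metastatic CR tumors. Its CR and AS tumors overlapped, and the edgeR test gave log2 fold change 1.15 ± 0.42 (SE, n = 4 per group), adjusted p = 0.111 and exact permutation p = 0.229.

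BLM and FANCF made up the rest. Blm, with the counts given above, was higher in CR than AS tumors within both tumor types, with log2 fold change 0.88 ± 0.21 (SE, n = 4 per group), adjusted p = 0.0300 and exact permutation p = 0.114 (edgeR). Primary CR2 was below both metastatic AS tumors, so the 4 CR and 4 AS tumors overlapped. Fancf, a small adaptor of the core complex, had counts of 6.62 and 12.7 in the primary AS tumors, 45.3 and 44.1 in the primary CR tumors, 13.5 and 20.9 in the metastatic AS tumors and 62.5 and 27.3 in the metastatic CR tumors. All CR tumors were above all AS tumors, with log2 fold change 1.77 ± 0.44 (SE, n = 4 per group), adjusted p = 0.0339 and exact permutation p = 0.0286 (edgeR), but the raw counts were only 7 to 63. Fancf shares 15% of its exon bases with Gas2 on the opposite strand, and Gas2 had a log2 fold change of 1.10 that did not pass (adjusted p = 0.255).

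The calls other than Brca2 were lost when any of several tumors was left out, in fits in which the calls over all genes fell from 2081 to between 481 and 1116. The call of Rbbp8 was lost (adjusted p = 0.0513 to 0.0884) without any one of primary AS1, primary AS2, metastatic AS1, metastatic AS2, metastatic CR1 or metastatic CR2, and so was that of Blm (0.0579 to 0.0914). That of Fancf was lost without primary AS1, primary AS2, metastatic AS1, metastatic AS2, metastatic CR1 or primary CR2 (0.0737 to 0.124). Rad50 was lost without any tumor other than primary CR1 (0.0549 to 0.133). Without primary CR1 all 5 passed, as did Fancg, Rad51c and Mus81 as lower in CR tumors, and the median log2 fold change of the 38 went from 0.25 to -0.03. Without that tumor 8 of the 38 genes passed, beside 4133 of all genes (23.8%). In that fit every CR library was also shallower than every AS library. Over the 8 fits with 1 tumor left out the log2 fold change stayed positive, at 0.64 to 0.89 for Rbbp8, 0.71 to 0.97 for Blm, 1.54 to 2.04 for Fancf and 0.51 to 0.71 for Rad50.

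Lower in CR tumors before correction were 3 genes. FANCG belongs to the core complex, RAD51C is a recombinase paralog and MUS81 is a nuclease that cuts joined strands. Fancg counts were 169 and 186 in the primary AS tumors, 128 and 82.3 in the primary CR tumors, 179 and 160.5 in the metastatic AS tumors and 48.6 and 89.4 in the metastatic CR tumors, and Rad51c counts were 137 and 101.5 in the primary AS tumors, 97.0 and 44.1 in the primary CR tumors, 134 and 142 in the metastatic AS tumors and 62.5 and 76.99 in the metastatic CR tumors. Mus81 counts were 436 and 542 in the primary AS tumors, 410.4 and 315 in the primary CR tumors, 458 and 569.8 in the metastatic AS tumors and 227 and 169 in the metastatic CR tumors. Every CR tumor lay below every AS tumor for all 3. The edgeR log2 fold changes were -1.02 ± 0.30 for Fancg (adjusted p = 0.0563), -0.85 ± 0.31 for Rad51c (0.105) and -0.89 ± 0.26 for Mus81 (0.0554), so none passed. Without primary CR1 the adjusted p-values (edgeR) were 0.0178, 0.0217 and 0.0151, in a fit in which 23.8% of all genes passed adjustment. Efemp2, which overlaps 4.85% of the Mus81 exon bases, fell in CR tumors by 0.82 on the log2 scale (adjusted p = 0.0419).

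The partner of BRCA2 had a smaller difference. Palb2 counts were 82.3 and 71.0 in the primary AS tumors, 119 and 126 in the primary CR tumors, 116 and 115 in the metastatic AS tumors and 135 and 176 in the metastatic CR tumors. All CR tumors were above all AS tumors, with log2 fold change 0.55 ± 0.23 (SE, n = 4 per group), adjusted p = 0.156 and exact permutation p = 0.0286 (edgeR). Brca1 and Bard1, by contrast, overlapped between phenotypes, with log2 fold changes of 0.38 ± 0.32 and -0.07 ± 0.39 that did not pass.

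Fanca, the scaffold of the core complex, had counts of 272 and 165 in the primary AS tumors, 341 and 109 in the primary CR tumors, 220.2 and 269 in the metastatic AS tumors and 191 and 261 in the metastatic CR tumors. Rad54l, a motor protein like RAD54B, had counts of 934 and 1102 in the primary AS tumors, 1786 and 782 in the primary CR tumors, 1068 and 1033 in the metastatic AS tumors and 696 and 964 in the metastatic CR tumors. Primary CR1 was the highest tumor and primary CR2 among the lowest for both, so the phenotypes overlapped. Their log2 fold changes between phenotypes were -0.02 ± 0.35 and 0.00 ± 0.28. Rad54l shares 15.4% of its exon bases with Lrrc41 on the opposite strand. Lrrc41 was also highest in primary CR1 (4167) and low in primary CR2 (1764), so the counts of Rad54l are uncertain.

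The remaining 14 genes are given by range, and none of them had an unadjusted p under 0.05 in any comparison. Their log2 fold changes between phenotypes ran from -0.39 for Slx4, a scaffold for nucleases, to 0.68 for the core gene Fancb. Between tumor types they ran from -0.27 for the paralog Xrcc3 to 0.93 for Clspn. The other members were the core genes Fancc, Fance, Fancl and Fancm, Fanci, the paralog Xrcc2, the junction genes Rmi1 and Eme1, and the fork genes Topbp1 and Timeless.

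**Figure D5:**
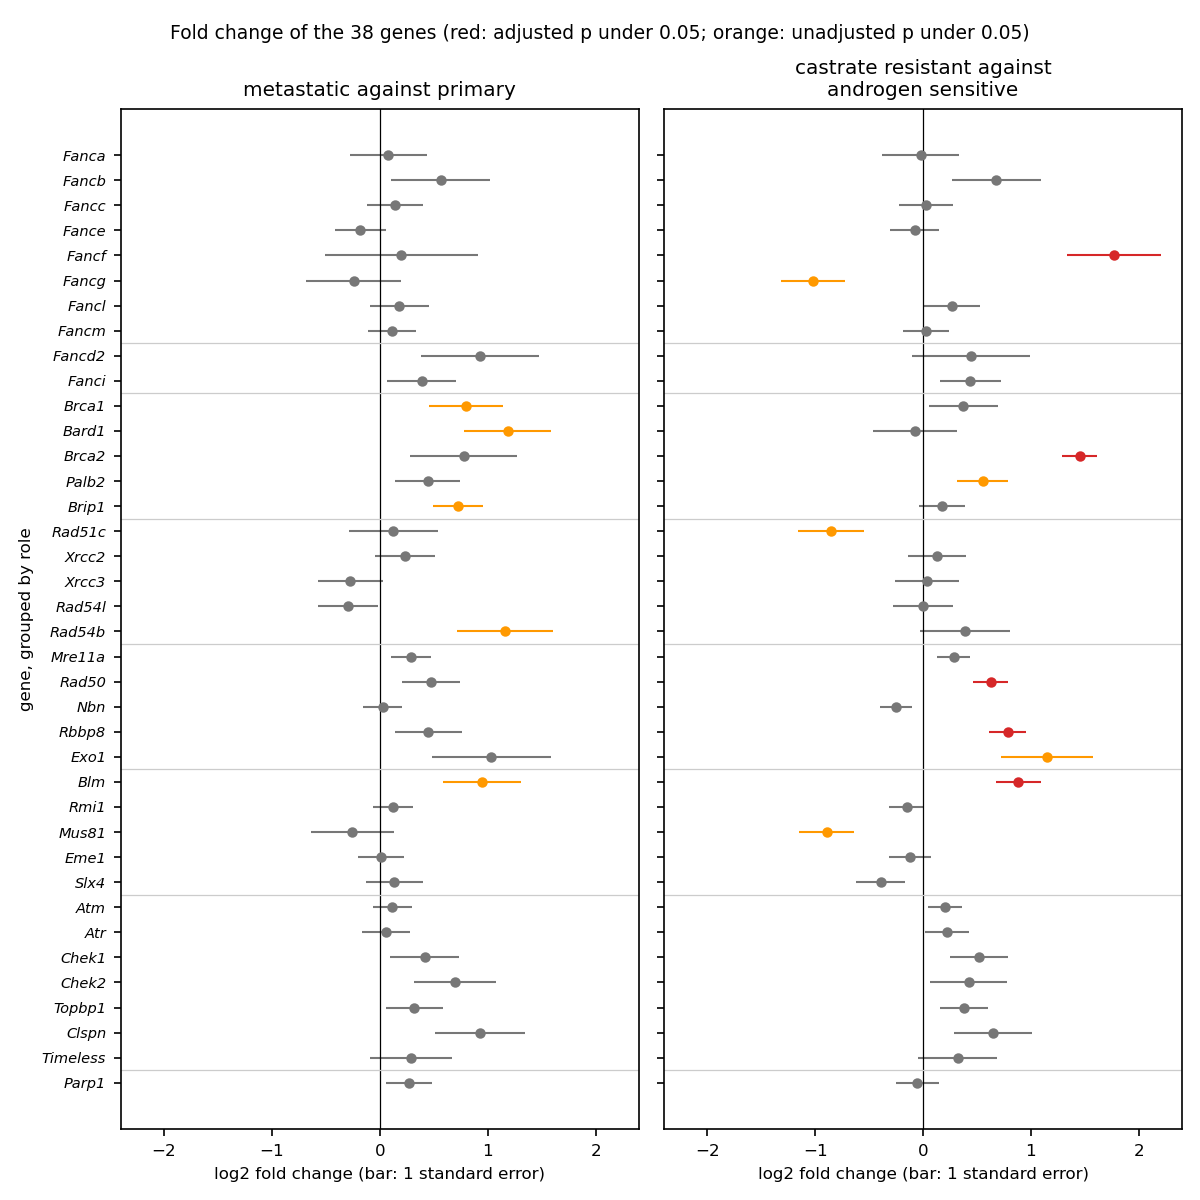
Log2 fold change of the 38 genes, grouped by role, for metastatic against primary tumors (left) and castrate-resistant against androgen-sensitive tumors (right), with bars of 1 standard error. On the right 5 genes pass after adjustment (red, led by Fancf at 1.77 and Brca2 at 1.45), and on the left none does, though 33 of 38 lie above 0.

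By role, the 7 checkpoint and fork genes all had positive differences in both comparisons, with medians of 0.32 for metastases and 0.38 for CR tumors, and none passed adjustment. The 5 genes of the BRCA complexes all had positive differences in metastases (median 0.78) and 1 of the 5 passed in CR tumors. In end resection 2 of 5 passed in CR tumors. In the core complex and in junction processing 1 each passed in CR tumors, with medians of 0.03 and -0.15, while none of the 5 paralogs and motors did. Over all genes, 46.2% had positive differences in metastases and 49.2% in CR tumors, and 6.16% rose in CR tumors after adjustment. The roles hold few genes each and were not tested against these shares.

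The genes differed from the average gene in base composition and transcript length, and both moved with both comparisons. Over 13674 protein-coding genes tested, the median CR minus AS log2 fold change was 0.15 in the quartile of lowest transcript GC and -0.23 in that of highest, and the metastatic minus primary median was 0.06 and -0.15. Of the 38 genes 27 (71.1%) were in the lower 2 quartiles, and their median transcript GC was 46.3% beside 49.7% for all. Brca2 (42.4%), Rbbp8 (42.1%), Blm (44.4%) and Rad50 (45.2%) were in the lower 2 quartiles, while Fancf (56.9%) and Mus81 (55.3%) were in the highest and Fancg (52.4%) and Rad51c (44.4%) in the third and the lowest. By transcript length, the median CR minus AS log2 fold change was -0.16 in the shortest quartile and 0.024 in the longest. The metastatic minus primary median was -0.09 and -0.0038. Median transcript length was 4528 bases for the 38 genes and 3366 for all. The part of GC content or length in these results was not tested.

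The third comparison asked whether the metastatic minus primary difference itself differed between CR and AS tumors. None of the 38 passed after adjustment, nor did any of 18889 genes tested (0%), and none of the 38 had an unadjusted p under 0.05, beside 2.74% of all genes (edgeR). DESeq2 called 2 genes of all and none of the 38. The closest was Mus81, with an interaction of -0.97 ± 0.44 (SE, 2 tumors in each of 4 groups) and adjusted p = 0.964. The median over the 38 was -0.31, beside -0.05 for all genes, and it was 0.16 without primary CR1 and -0.68 without primary CR2. Without primary CR2, 12 of the 38 passed the unadjusted threshold, beside 14.2% of all genes.

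Other repair genes were compared for context. Of 30 further recombination and Fanconi genes tested, 2 were higher in metastases at an unadjusted p under 0.05, among them Polq, the polymerase of an error-prone break repair, with a log2 fold change of 1.25 ± 0.49. At the same threshold 1 of 23 damage signalling genes was higher (Wee1, a kinase that delays mitosis), and no gene of end joining, base excision or nucleotide excision repair differed. Over all genes 1.56% were higher and 1.12% lower at that threshold. In CR tumors 3 of the 30 rose after adjustment and 1 fell, with Rad18, a ligase for stalled forks, at 0.82 ± 0.13, Usp1, which removes ubiquitin from FANCD2, at 0.72 ± 0.15 and Zswim7 at -1.26 ± 0.19. Of 11 end-joining genes, Rif1 rose by 0.51 ± 0.14 and Prkdc, the kinase of that pathway, fell by 0.80 ± 0.19 on the log2 scale. Nucleotide excision repair had 2 of 16 higher and 1 lower and damage signalling 2 of 23 higher and 1 lower, by edgeR after adjustment. Base excision repair had 0 of 18 after adjustment, with 2 higher and 1 lower at an unadjusted p under 0.05. Over all genes 6.16% rose and 6.01% fell in CR tumors after adjustment. At an unadjusted p under 0.05 these shares were 14.3% and 14.6%. The lists were not tested against these shares.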

How the data were processed

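RNA from 8 Myc-CaP tumors was sequenced as stranded, ribosomal RNA-depleted paired-end libraries. The deposited values are raw read counts per Ensembl gene made by the authors. Their methods name Bowtie, mm10 and uniquely mapped reads, whereas the submitters' processing notes name CASAVA 1.8.2, TopHat2 2.0 and GRCm38. The counting tool and annotation release are not given in the sources used here. The members and gene lists were chosen with earlier results of these data known.

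Counts were tested with edgeR 4.0.16 in R 4.3.3 (TMM factors, filterByExpr, quasi-likelihood test, Benjamini-Hochberg over all genes tested, threshold 0.05) for tumor type, for phenotype with tumor type as a term, and for their interaction. Single values also had an exact permutation test, whose smallest two-sided p is 0.0286 over 70 splits. Normalized counts are counts divided by TMM-scaled library size, on the mean library scale. Levels per length used the exon union of GENCODE M21 genes, which held 36343 of 38115 identifiers. Multi-mapping and overlapping genes can lose or share reads. Scripts were tested on simulated data. Alternatives were other factors, DESeq2 1.42.0, no filter, leaving out each tumor, subsets, covariates and possible pairings. Values in every tumor are given for members with an unadjusted p under 0.05 in any fit and for 16 members listed for their roles, the rest by range.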

Additional observations from a re-analysis of the deposited data

Results flagged for a closer look

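In 104 groups of 4 tumors (24 genes and 2 gene groups, each by tumor type and by phenotype), 5 had 1 tumor far from the other 3 by Dixon's gap test, and chance alone flags about 5% of groups. Primary CR1 was far above the other 3 primary tumors for Fancd2 (286 against 49.97 to 84.2), Brca1 (741 against 265 to 345) and Chek2 (188 against 63.4 to 82.9), as normalized counts. It was also far above them in the median relative level of the proliferating cell markers (1.57 against 0.41 to 0.55). Chek1 was lower in metastatic AS2 than in the other 3 metastases (375 against 503 to 523 normalized counts).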

How the results depend on the processing

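In the comparison of tumor types, 5 members had an unadjusted p under 0.05 as reported, 10 with phenotype as a term, 15 in AS tumors only, 2 in CR tumors only, and 2 to 17 when 1 tumor was left out. All were higher in metastases, beside 1.56%, 2.75%, 4.28%, 0.915% and 0.694% to 3.48% of all genes. Under a replicate block, tried for the 4 ways in which metastases could pair with primaries, the count was 10, 12, 9 and 11, beside 3.22%, 2.77%, 2.69% and 2.51% of all genes higher. The labels do not say which pairing holds, and no member or other gene passed adjustment under any of them. Alternatives added after the data were seen left out primary CR1 with phenotype as a term. After adjustment edgeR gave 0 genes and 0 members, and DESeq2 gave 422 genes (2.43% of all) and 15 members. At an unadjusted p under 0.05, edgeR gave 19 members and DESeq2 18, all higher, beside 5.23% and 5.73% of all genes higher.

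In the comparison of phenotypes, 5 members and 2081 genes (12.2% of all) passed adjustment, against 9 and 3544 (20.7%) with DESeq2. DESeq2 had 6 members higher and 3 lower. In primary tumors only 0 members and 4 genes (0.0233%) passed, and in metastatic tumors only 1 and 974 (5.49%). Without tumor type as a term 2 members passed (11.1% of all genes), and without the filter on low counts 6 members and 3098 genes (9.72%). Leaving out 1 tumor gave 1 to 8 members and 481 to 4133 genes (2.76% to 23.8%). At an unadjusted p, 10 members passed as reported (28.8% of all genes) and 6 in primary tumors only (10.5%). For the interaction, DESeq2 gave 2 genes and no filter gave 217 genes (0.681%). Without the filter 2 members had an unadjusted p under 0.05, beside 5.0% of all genes. Leaving out 1 tumor gave 0 to 82 genes, 0 to 12 members unadjusted and a member median of -0.68 to 0.16. The cause was not tested.

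Log2 fold changes that turned direction belonged to genes that did not pass. Between tumor types, Nbn was -0.017 without the filter and -0.019 in CR tumors only, Atr was -0.0035 without the filter, Rad54l was 0.063 and Mus81 0.090 in AS tumors only, and Rad51c was -0.0096 in CR tumors only. Between phenotypes, Fanca was 0.0010 with upper-quartile factors and 0.069 in primary tumors only, Rad54l was -0.088 without the filter and -0.34 in metastatic tumors only, Parp1 was 0.12 in primary tumors only, and Fancd2 was -0.27 and Chek2 -0.027 in metastatic tumors only. With 1 tumor left out, tumor type gave -0.38 to 0.64 for Fancf, -0.049 to 0.26 for Atr, -0.075 to 0.35 for Rad51c, -0.081 to 0.13 for Nbn, -0.12 to 0.36 for Fanca, -0.51 to 0.030 for Fancg and -0.020 to 0.18 for Atm. With phenotype as a term and without primary CR1, Rad54l was 0.057 by edgeR and 0.059 by DESeq2 (-0.42 to -0.0032 with 1 tumor left out alone). Phenotype gave -0.45 to 0.21 for Fanca, -0.40 to 0.16 for Bard1, -0.36 to 0.16 for Rad54l, -0.39 to 0.81 for Fancd2, -0.058 to 0.56 for Brca1, -0.15 to 0.63 for Rad54b, -0.0054 to 0.64 for Chek2 and -0.30 to 0.078 for Parp1.

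Limits: 2 tumors per group, 1 cell line per phenotype, unknown pairing and unknown metastatic site. Depth ran from 20905806 to 91886163 counts, and low genes such as Fancf (7 to 63 counts) carry the most counting error.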
